A study of Mus musculus with 6 samples.

Results

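The genes described here encode the proteins of the cytosolic ribosome in mouse. They were chosen by name from a deposited expression table of 48709 genes: protein-coding rows named Rpl or Rps with a number and a short suffix, and Rplp0, Rplp1, Rplp2 and Rpsa. The rule took 84 genes, 52 of the large subunit (Rpl) and 32 of the small subunit (Rps). They are scattered over 19 chromosomes, and 4 of them (Rpl10, Rpl36a, Rpl39 and Rps4x) lie on the X. It also took gene copies with close relatives among the others, such as Rpl22l1, Rpl7l1 and Rps27l, and it missed ribosomal proteins that carry other names, of which Fau, Rack1 and Rpl36al are described separately.

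The study sequenced the RNA of natural killer T cells (iNKT cells), sorted from mouse spleen in the resting state, in 3 WT and 3 Gpx4 cKO samples. Gpx4 encodes the glutathione peroxidase that reduces lipid hydroperoxides in membranes, and cKO stands for a conditional knockout. The Cre driver, the floxed allele, the age of the mice and whether the samples came from separate animals are not stated in the labels. The expression table names its 6 libraries only by a number from 18 to 23, which occurs in no label, so no library could be placed in a genotype and no genotype comparison was made.

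A eukaryotic ribosome joins a small subunit, which decodes the mRNA, to a large subunit, which forms the peptide bonds. Ribosomal proteins are needed in about equal amounts, and most of their mRNAs begin with a terminal oligopyrimidine (TOP) tract, an unbroken run of C and T bases at the start of transcription through which mTOR and LARP1 control their translation together. Resting lymphocytes make few ribosomes and raise their production when activated.

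The start sites of the 6 genes that varied most between libraries and the 4 most abundant per length are shown, with every annotated start that the promoter table holds, because the TOP tract is the feature these genes are known to share. The sequences are RefSeq promoters on GRCm38.p6, written 5′ to 3′ on the gene's strand from 25 bases before the annotated start to 25 after it. Capitals mark the longest run of C and T where it has at least 7 bases.
Rpl35a, upstream start, chr16:33056428-33056477, plus strand: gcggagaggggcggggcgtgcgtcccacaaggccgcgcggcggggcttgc
Rpl35a, middle start, chr16:33056457-33056506, plus strand: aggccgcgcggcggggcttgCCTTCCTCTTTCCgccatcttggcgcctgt
Rpl35a, downstream start, chr16:33056489-33056538, plus strand: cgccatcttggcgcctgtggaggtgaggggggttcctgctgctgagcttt
Rpl35, chr2:39005107-39005156, minus strand: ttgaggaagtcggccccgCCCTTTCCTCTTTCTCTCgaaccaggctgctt
Rpl15, chr14:18270962-18271011, minus strand: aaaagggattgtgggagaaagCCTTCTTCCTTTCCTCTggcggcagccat
Rplp0, chr5:115559442-115559491, plus strand: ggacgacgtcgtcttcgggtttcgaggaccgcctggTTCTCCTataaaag
Rps26, chr10:128626482-128626531, minus strand: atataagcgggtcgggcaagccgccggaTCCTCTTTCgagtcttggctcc
Rps24, upstream start, chr14:24490653-24490702, plus strand: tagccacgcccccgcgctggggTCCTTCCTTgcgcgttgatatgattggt
Rps24, downstream start, chr14:24490728-24490777, plus strand: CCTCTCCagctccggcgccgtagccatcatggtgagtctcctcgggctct
Rps23, chr13:90923097-90923146, plus strand: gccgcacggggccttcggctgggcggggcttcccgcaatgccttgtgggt
Rps28, chr17:33824538-33824587, minus strand: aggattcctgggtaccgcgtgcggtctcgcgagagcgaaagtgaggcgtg

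Rpl35 had the longest run of these windows, with 18 bases, followed by Rpl15 with 17 and the middle start of Rpl35a with 13. The upstream and downstream starts of Rpl35a had runs of 4 and 5 bases, Rps23 of 6 and Rps28 of 5, all under the mark of 7. Rps29 and Rpl32 were not matched in the promoter table. The promoter table held 63 of the 84 genes, some with more than 1 start. A run of at least 7 C or T bases lay in the window of 38 of these 63 genes, or 60.3%, against 32.7% of all 27025 genes with a promoter. The run could lie anywhere in the window, as in Rplp0, so it need not be a TOP tract at the start of transcription. Nor does a window without a marked run show that a gene lacks the tract. In the whole promoter of 300 bases, searched on both strands, CCGGAAG (the core bound by ETS-family factors such as GABP) was found in 41.3% of the 63 genes and 9.93% of all genes. AAGATGG (the core of the YY1 motif) was found in 15.9% and 7.28%, and GGGCGG (the GC box bound by Sp1) in 61.9% and 38.2%. No motif contains another, but CCGGAAG ends and AAGATGG begins with the same 3 letters, so adjoining matches can share them. These are matches of letters in annotated windows, and binding was not measured.

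The depth of the libraries differed 11.2-fold, from 903524 exon reads in library 21 to 10122187 in library 19. All values below rest on the authors' read counts, scaled here to counts per 1000000 reads (CPM) with TMM factors, and intervals cover counting error only. Gpx4 itself was listed at 30.1, 3.20, 31.3, 14.5, 29.0 and 11.1 CPM in libraries 18 to 23, and these values were not used to sort the libraries. The 12 T and iNKT cell markers summed to between 5412 CPM (library 23) and 6692 CPM (library 19), with Zbtb16, the defining transcription factor of iNKT cells, at 245 to 357 CPM. The 10 B cell markers summed to 997 CPM in library 18, 1985 in library 19 and between 3913 and 5247 in the other 4, most of it Igkc. The 8 erythroid and platelet markers summed to 9.16 and 8.19 CPM in libraries 18 and 19 and to between 65.2 and 298 in the others. The 7 myeloid markers in the table stayed between 6.39 and 18.1 CPM, with S100a8 at 0 in every library. In bulk RNA, fewer cells of a type and less RNA per cell cannot be told apart.

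Ribosomal protein genes took 5.69% to 7.78% of all exon reads. The share was lowest in library 19, at 5.69% (95% exact binomial interval 5.68 to 5.71), and highest in library 18, at 7.78% (7.76 to 7.80). Libraries 20, 21, 22 and 23 lay between them, at 6.81%, 6.69%, 7.29% and 6.77%. In CPM the 84 genes summed to 75168, 54258, 67255, 72914, 72721 and 68371 in libraries 18 to 23. The highest sum was 1.39 times the lowest, but without library 19 only 1.13 times.

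Library 19 was lowest for both subunits. The order of the other libraries differed between the subunits. From library 21 to 22 the large subunit sum fell from 46322 to 45067 CPM, while the small subunit sum rose from 26593 to 27654 CPM. The ratio of large to small subunit reads was 1.72, 1.81, 1.70, 1.74, 1.63 and 1.80 in libraries 18 to 23, a 1.11-fold range. It was lowest in library 22 and highest in library 19. Library 19 held the lowest level for genes of both subunits, 43 of the 48 large subunit genes with enough reads and 29 of the 32 small subunit genes.

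**Figure D1:**
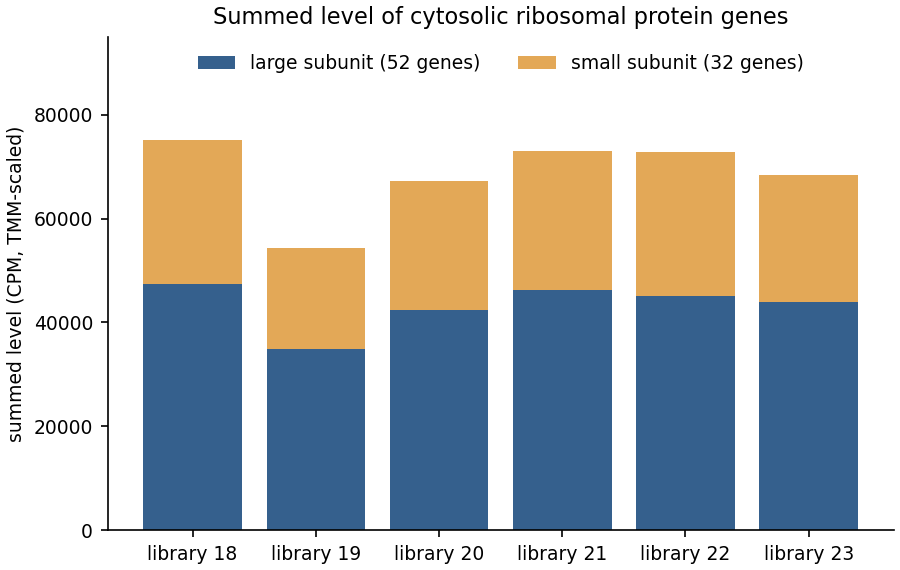
Summed level of the 84 ribosomal protein genes in each library, in TMM-scaled CPM, with the 52 large subunit genes below and the 32 small subunit genes stacked above them. Library 19 stands lowest at 54258 CPM, and the other 5 lie between 67255 and 75168.

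Each gene was tested for whether its counts differed between the 6 libraries by more than counting error, with a chi-square test adjusted by the Benjamini-Hochberg method over all 9042 genes with at least 200 reads in total. This test says nothing about genotype. Of the 84 genes, 80 had enough reads and all 80 passed, against 71.6% of all genes tested. These are deeply counted genes, so small differences pass. The size of the differences was modest: 75 of the 80 stayed within a 2-fold range over the libraries, against 72.9% of all genes tested. That 72.9% includes genes with as few as 200 reads in total, whose ranges counting error widens. It does not show that ribosomal protein genes are steadier than others of like depth. The median ratio of highest to lowest level was 1.52, against 1.57 for all genes. Which of these medians was higher depended on the genes and libraries used. Without library 19 they were 1.25 and 1.49. Among genes with at least 1000 reads they were 1.52 for ribosomal protein genes and 1.41 for all genes, and without library 21 they were 1.5 and 1.42.

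The genes were not low in just any library. Of the 80, 72 had their lowest level in library 19, or 90%, against 14% of all genes tested. With library sizes taken as total exon reads the count was 64, and 9.07% of all genes. Compared with library 18, 79 of the 80 genes were lower in library 19, by a median of -0.55 on the log2 scale, while the median over all 9042 genes was 0.00. Compared with library 19, the median gene of the 80 stood higher by 0.37, 0.44, 0.46 and 0.35 (log2) in libraries 20 to 23. The medians over all genes for these 4 pairs lay between 0.00 and 0.07. Library 19 was the deepest, had the lowest Gpx4 level and the highest T cell marker sum, and its B cell and erythroid sums were below those of libraries 20 to 23. The T cell markers did not move together there. Cxcr6 (1439 CPM) and Il2rb (1376 CPM) were highest in library 19, while Zbtb16 (245 CPM) and Il7r (873 CPM) were lowest in it. The part of these features of library 19 in the result was not tested.

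The other 8 genes were lowest elsewhere. Among them, and named after their values were seen, were Rpl5 and Rps12 in library 20, Rpl23a, Rpl27 and Rplp0 in library 23, Rpl7l1 in the shallow library 21 and Rps27l in library 22. The library in which a gene was highest depended on the scaling. Under TMM, 31 genes were highest in library 18 (38.75%, against 12.2% of all genes tested), 17 each in libraries 21 and 22, and the rest in library 23 (11 genes) or 20 (4 genes). Under total exon reads, 52 were highest in library 18 (17% of all genes).

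**Figure D2:**
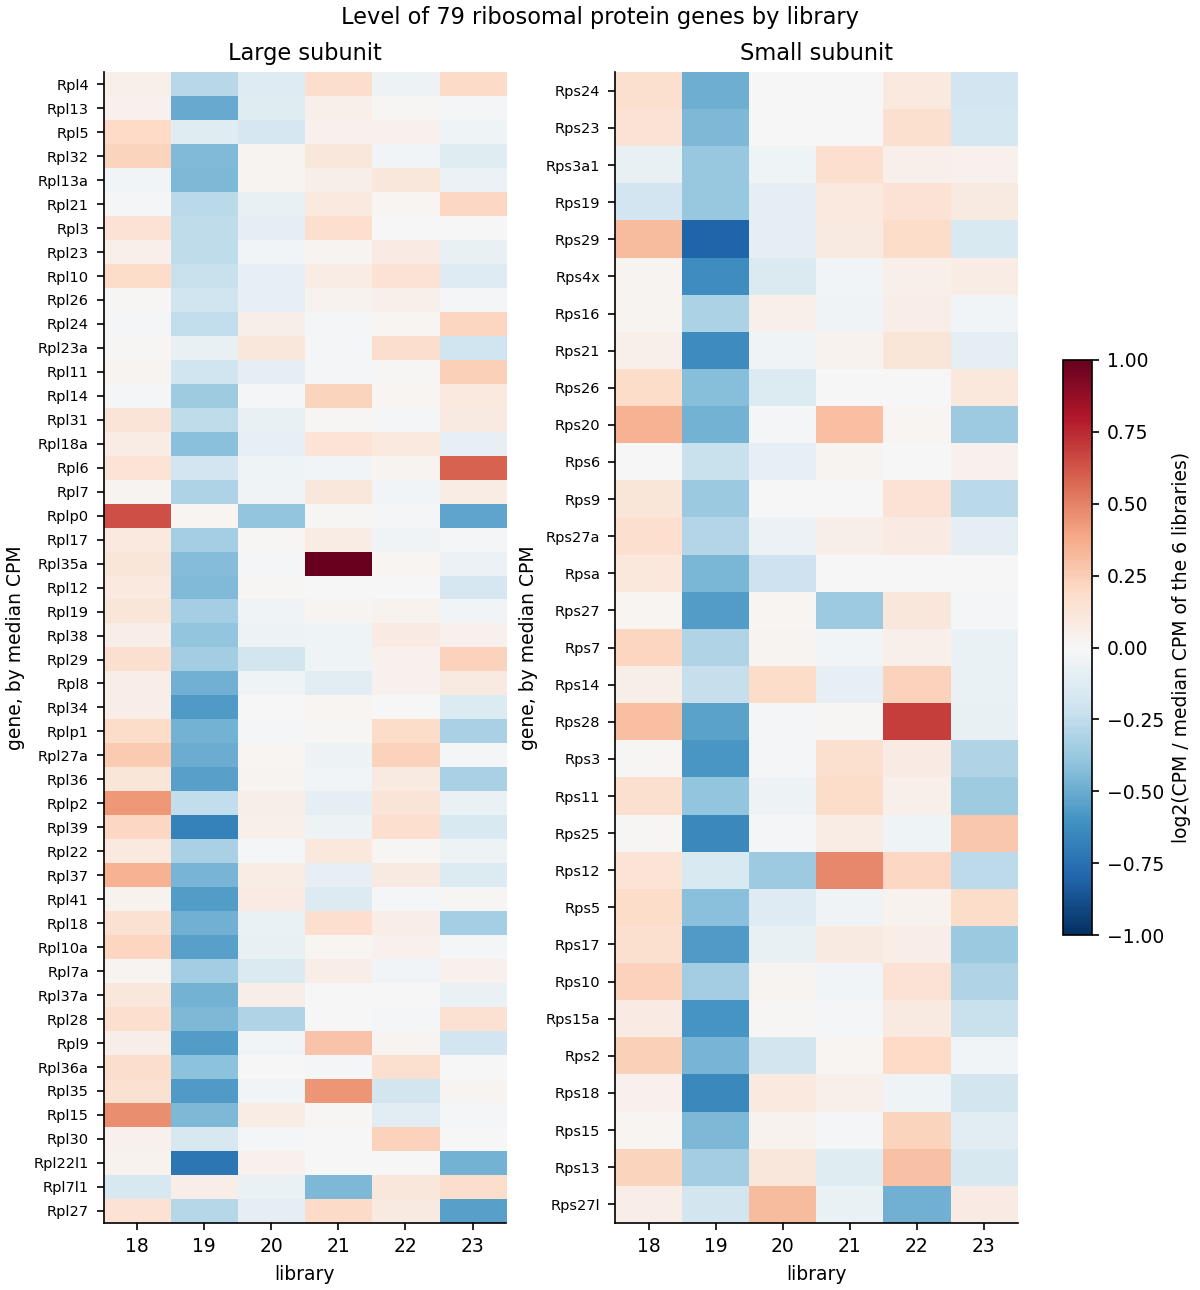
Level of 79 of the 80 tested genes in each library, as log2 of its CPM over its median CPM, with red above and blue below the median and genes ordered by median CPM within each subunit. The column of library 19 is blue for nearly every gene, and single red cells stand out for Rpl35a in library 21, Rplp0 in library 18, Rpl6 in library 23 and Rps28 in library 22.

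When each gene was instead expressed as a share of all ribosomal protein reads in its library, most differences shrank. The median ratio of highest to lowest share fell from 1.52 to 1.26, and over all genes tested it was 1.76 with this scaling. Dividing genes by their own sum removes what they have in common, so a fall is built into this scaling. Scaled this way, 77 of the 80 genes still differed by more than counting error, against 91.8% of all genes tested. The exceptions were Rpl19, with a ratio of 1.05 and shares from 1.12% to 1.17%, Rpl22, with a ratio of 1.07, and Rpl27, which had few reads and kept a ratio of 1.56. Rpl19 and Rpl22 lie near the tunnel through which the nascent protein leaves the ribosome. Other genes listed below for this site had share ratios on both sides of the median, from 1.12 for Rpl17 to 1.54 for Rpl35.

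Rpl35a was the gene with the widest range. It encodes a large subunit protein, needed to mature the large subunit's RNA, and its human counterpart is mutated in some patients with Diamond-Blackfan anaemia, a failure of red cell production caused by loss of 1 copy of a ribosomal protein gene. Its level was 1013, 689, 916, 1907, 943 and 893 CPM in libraries 18 to 23. Library 21 alone was high, with 1580 reads, and the other 5 did not exceed 1013 CPM. The ratio of highest to lowest level was 2.77, and 1.48 without library 21. As a share of ribosomal protein reads Rpl35a took 2.61% in library 21 and 1.27% to 1.36% in the others. Reads across splice junctions made up 80.6% of its exon reads in library 21 and 65.6% to 73.5% elsewhere, and 100% of its exon reads matched 1 place in the genome in each library. Library 21 was also the shallowest, and the part of depth in this result was not tested.

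Rplp0, Rplp1 and Rplp2 form the P stalk, the flexible arm of the large subunit that recruits translation factors. Rplp0 anchors the stalk, and its level was 1520, 984, 737, 977, 963 and 673 CPM in libraries 18 to 23. Library 18 was high, and libraries 20 and 23 were the lowest, so that Rplp0 did not follow the low level of the other genes in library 19. Its ratio of highest to lowest level was 2.26, and 1.48 without library 18. Its partners Rplp1 (783, 497, 681, 695, 782 and 549 CPM) and Rplp2 (870, 544, 673, 602, 705 and 617 CPM) were both lowest in library 19. The 3 stalk genes had their highest level in library 18, though Rplp1 was nearly as high in library 22.

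Rps28 and Rps29 encode small proteins of the small subunit, and both are also on the list of Diamond-Blackfan anaemia genes. Rps28 was at 755, 425, 608, 619, 993 and 582 CPM in libraries 18 to 23, highest in library 22 and 2.34 times its level in library 19. Rps29 was at 1541, 710, 1153, 1317, 1404 and 1111 CPM. It was high in library 18 and low in library 19, with a ratio of 2.17, which was 1.40 without library 19. Rpl35, at the tunnel exit, was at 211, 129, 187, 258, 167 and 193 CPM, with a ratio of 2.01, and it is the fifth and last gene to exceed a 2-fold range. Rpl15, a large subunit protein, was at 241, 128, 184, 176, 162 and 173 CPM, highest in library 18 and with a ratio of 1.89.

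Among the steadiest genes were Rpl26, Rps6 and Rpl23, with ratios of highest to lowest level of 1.19, 1.20 and 1.27. Rps6 is the ribosomal protein whose phosphorylation by S6 kinase is read as a sign of mTOR activity. Its mRNA lay between 776 CPM in library 19 and 933 CPM in library 23.

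**Figure D3:**
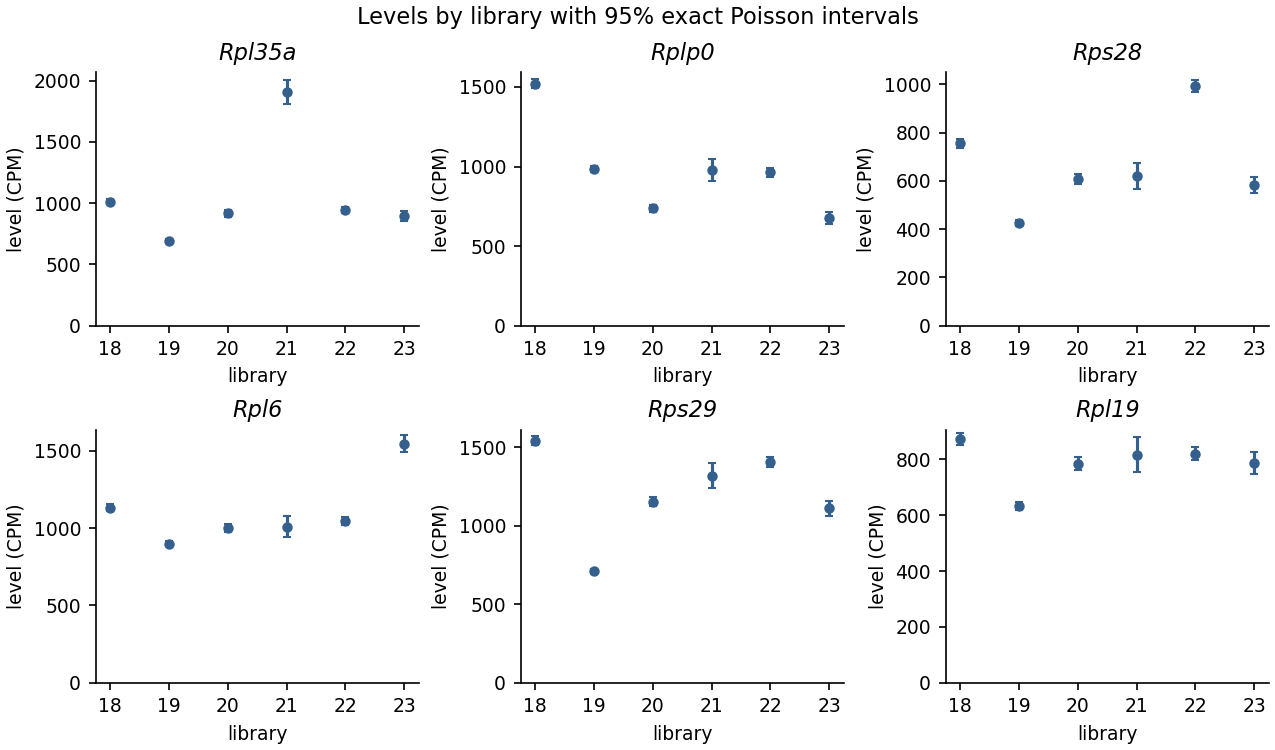
Level in CPM of 6 ribosomal protein genes in libraries 18 to 23, with 95% exact Poisson intervals and each axis starting at 0. Rpl35a stands alone in library 21, Rplp0 in library 18 and Rpl6 in library 23. Rpl19 is lowest in library 19, at 634 CPM, and lies between 784 and 873 CPM in the others.

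Rpl5 and Rpl11 form the 5S particle with the 5S ribosomal RNA, which outside the ribosome binds MDM2 and so stabilises p53. Rpl5 was at 2748, 2208, 2134, 2468, 2465 and 2324 CPM, highest in library 18. Rpl11 was at 1278, 1092, 1177, 1241, 1262 and 1479 CPM, highest in library 23. Their ratios of highest to lowest level were 1.29 and 1.35.

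The 9 genes of the peptide exit site (Rpl17, Rpl19, Rpl22, Rpl23a, Rpl26, Rpl31, Rpl35, Rpl38 and Rpl39) ring the tunnel mouth. All 9 varied beyond counting error, with a median ratio of 1.35, and 8 were lowest in library 19. The 15 genes listed for Diamond-Blackfan anaemia all varied too, with a median ratio of 1.56, and 13 were lowest in library 19. Of all tested ribosomal protein genes, 100% varied and 90% were lowest in library 19, so these counts do not set either list apart. Of all genes tested, 71.6% varied and 14% were lowest there. The most abundant members of the Diamond-Blackfan anaemia list in CPM were Rpl5, Rps24 and Rps19, the last of which is the gene most often mutated in patients. Rps19 was at 1398, 1229, 1494, 1711, 1763 and 1695 CPM, lower in libraries 18 and 19 than in the last 3.

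Rpl6, chosen after its values were seen, encodes a large subunit protein and was at 1130, 899, 999, 1010, 1045 and 1544 CPM. Library 23 alone was high, where Rpl6 took 2.26% of ribosomal protein reads against 1.39% to 1.66% elsewhere.

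Levels per length differed 125-fold between the highest and the lowest gene. On the authors' RPKM scale, which divides reads by exon length and depth, the 80 genes had a median of 209 RPKM (quartiles 101 and 390) for the median over the libraries. The highest were Rps24 with 1172 RPKM, Rps26 with 1065, Rps23 with 968 and Rpl32 with 891. Rps26 lies where the mRNA leaves the small subunit, and Rps23 at its decoding centre. The lowest were Rps27l with 9.34 RPKM, Rpl7l1 with 11.0, Rpl27 with 14.1 and Rps15a with 20.6. The exon length in the table bears on this order: it was 6270 bases for Rps15a, 840 for Rps24 and 447 for Rps26, so that a gene with long annotated exons has a lower RPKM for the same reads. The ranges over libraries of neighbours in this order overlapped in most cases, as the ranked plot shows, and no test of the order was made.

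**Figure D4:**
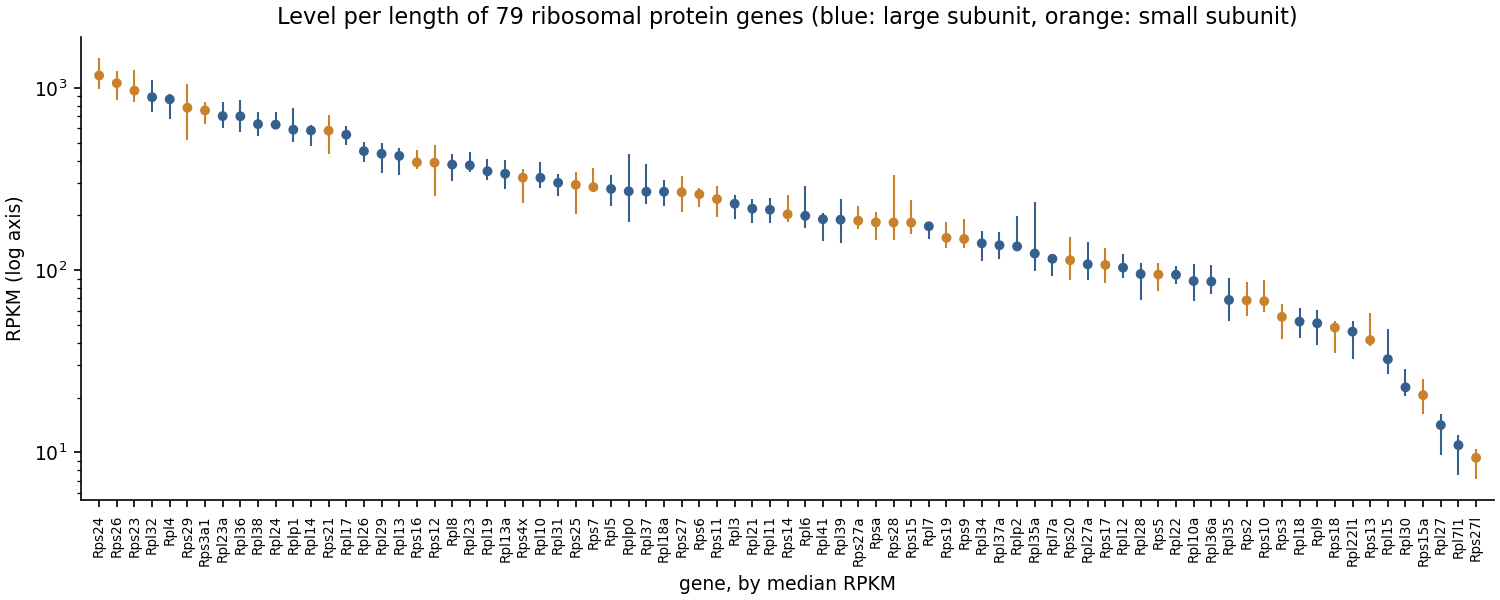
Median RPKM over the 6 libraries (points, log axis) of 79 of the 80 tested genes in descending order, with vertical lines from the lowest to the highest library and large subunit genes in blue and small subunit genes in orange. The values run from 1172 RPKM for Rps24 to 9.34 for Rps27l, and both subunits are spread along the whole order.

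Several ribosomal protein genes have a second copy in the genome that makes a similar protein. Rpl22l1, the paralog of Rpl22 and with it a gene known from T cell development, reached 46.0 RPKM against 94.4 for Rpl22. The ratio of Rpl22 to Rpl22l1 was 2.03, 2.55, 1.87, 2.09, 1.95 and 2.60 in libraries 18 to 23, so that the paralog was relatively low in libraries 19 and 23. Rps27l, a p53 target in human and mouse cells, was 28.7 times below Rps27 on the RPKM scale, and Rpl7l1 was 15.9 times below Rpl7. Rpl7l1 was the gene of the largest adjusted p among the 80, at 0.0154 in the chi-square test over all genes, with a ratio of 1.54. Rps27l followed at 0.0135, with levels of 17.2, 14.5, 20.5, 15.7, 11.8 and 17.4 CPM. The X-linked Rpl36a and its autosomal copy Rpl36al were close in level, at 86.6 and 60.7 RPKM.

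The 4 genes with fewer than 200 reads were also copies. Rpl3l, the muscle copy of Rpl3, had 1 read in all, and Rpl10l, the testis copy of Rpl10, had 4, all in library 23. Rpl39l had 17 reads over 5 libraries and Rpl6l had 19 over 4. For a count of 0 the upper limit lay between 0.282 CPM (library 19) and 3.62 CPM (library 21), and none of these copies had more than 8 reads in any library.

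For some genes the reads do not tell the gene from its processed copies. In each library 90.1% to 90.7% of ribosomal protein exon reads matched 1 place, against 97.7% to 98.1% for other genes. By gene, 51 of the 80 had over 99% of such reads and 6 had under 50%: Rps12 with 0%, Rpl13a with 7.74%, Rpl10 with 23.2%, Rpl27 with 31.7%, Rpl9 with 35.3% and Rpl24 with 48.3%. The levels of these 6 genes are uncertain, since the authors' counting could split reads between them and near-identical copies. Of the other genes described here, Rpl35 (64.2%), Rpl6 (78.5%), Rpl15 (82.9%), Rplp2 (84.4%) and Rps28 (87.6%) also lay under 90%, as did Rps27 (69.8%) and Rpl23a (79.01%). The table held 275 rows named as pseudogenes of these genes, of which 13 had any read and 257 had an exon length of 0. Their 11283 reads came to 0.524% of the 2154168 reads of the 84 genes, and most lay on Rps12-ps3 (7111 reads) and Rpl27-ps3 (3729 reads). Rpl27-ps3 held more reads than Rpl27 itself (1476), and 0% of the reads on either pseudogene crossed a splice junction. Added to their copies, Rps12 and Rpl27 were both lowest in library 19, which they were not alone.

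Few reads of these genes came from introns and many spanned splice junctions. Reads across splice junctions made up 85.6% to 87.0% of ribosomal protein exon reads in the 6 libraries, against 44.5% to 46.2% for all other genes. By gene the junction share depends on the exon structure, and ran from 46.8% for Rpl41, the shortest of the proteins, to 99.6% for Rps21. The median gene had 1.56%, 1.32%, 1.81%, 1.39%, 1.41% and 1.21% of its reads on introns in libraries 18 to 23. With reads summed over genes, the intron share was 1.71% to 2.26% for ribosomal protein genes. For all genes of the table it was 45.5% to 50.6%. Of the 80 genes, 70 had a median intron share under 5%.

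The lowest intron shares were those of Rpl9 (0.033%), Rpl13 (0.0955%), Rpl12 (0.158%) and Rps13 (0.184%). The highest were those of Rpl7l1 (21.3%), Rpl22l1 (18.2%), Rplp1 (16.5%) and Rps15a (12.3%). Rps15a had 11.5%, 13.0%, 11.5%, 11.7%, 13.5% and 32.7% in libraries 18 to 23, so that library 23 alone was high, with 241 intron and 495 exon reads. Rplp1 ran from 10.7% in library 21 to 17.6% in library 23.

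Some introns of ribosomal protein genes hold small nucleolar RNAs (snoRNAs), which guide the modification of ribosomal RNA and are trimmed from the excised intron. In the table's annotation 30 of the 84 genes contained 58 of its 1508 snoRNA rows, and the snoRNA rows had 0 reads. The median intron share was 0.993% in the 30 genes with a snoRNA and 1.89% in the 50 tested genes without, a description with no test. The difference in intron share between libraries could be tested for 58 genes, and 34 of them varied beyond counting error by the chi-square test, against 74.7% of the 7231 genes tested in all.

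**Figure D5:**
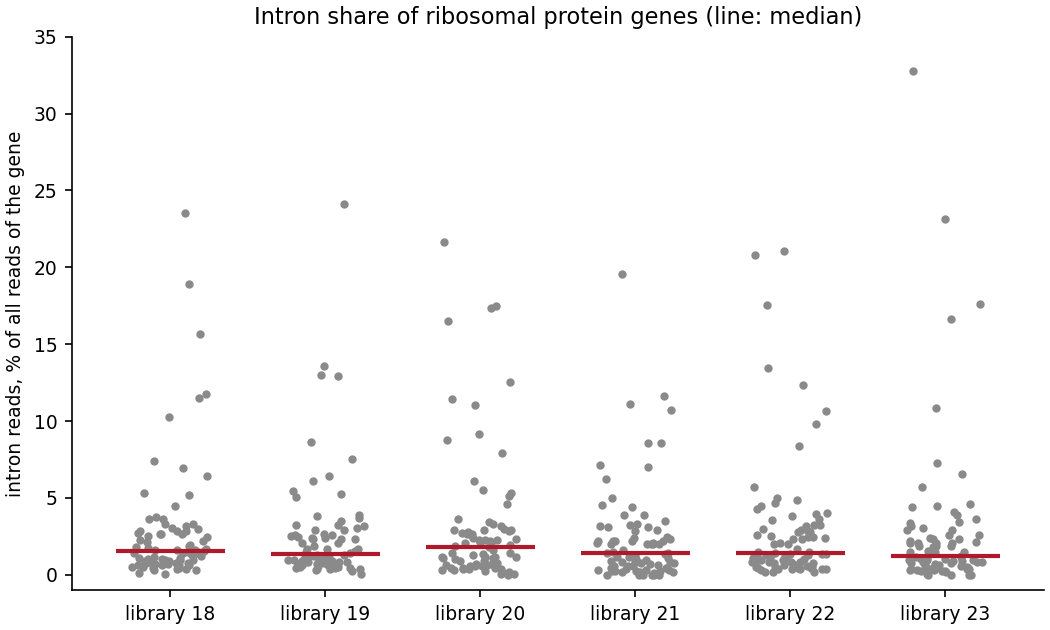
Intron reads as a percent of all reads of the gene, for the 80 tested genes (grey points) in each library, with a red line at the median over the 79 genes that had at least 20 reads in every library. The medians lie between 1.21% and 1.81%, and the highest point is Rps15a in library 23 at 32.7%.

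Ribosomal protein genes outside the naming rule were low in library 19 too. Fau, which encodes a ribosomal protein fused to a ubiquitin-like protein, and Rack1 and Rpl36al all had their lowest level there. Rack1 ranged from 391 to 574 CPM, and Fau from 424 to 652 CPM. These 3 genes varied beyond counting error by the same test, as did 71.6% of all genes tested. Of all genes tested, 14% were lowest in library 19.

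The wider set of translation factors and other TOP mRNAs had 17 members tested, all of which varied (71.6% of all genes tested), and 11 were lowest in library 19 (14% of all genes). Summed, they were lowest in library 19 (23809 CPM) and highest in library 22 (29536 CPM), which differ 1.24-fold. Eef1a1, which brings aminoacyl-tRNA to the ribosome, was at 12281 CPM in library 19 and between 14000 and 14910 in the others. Tpt1 was at 3145 CPM in library 19 and 3431 to 4072 elsewhere. Pabpc1, the poly(A)-binding protein, was at 3331, 3102, 3138, 4185, 4775 and 3287 CPM, highest in libraries 21 and 22.

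Genes of ribosome assembly and RNA polymerase I, which make the rest of the ribosome, varied in 24 of 33 cases, near the 71.6% of all genes tested, and 12 were lowest in library 19 (14% of all genes). The summed level was lowest in library 19 (3626 CPM) and highest in library 23 (4800.2 CPM). Ncl, the nucleolar protein nucleolin, was at 1443 CPM in library 19 and 1971 CPM in library 23. The assembly factors Mdn1 and Wdr43 had medians of 338 and 193 CPM, and both were lowest in library 19.

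Among 8 tested regulators of TOP mRNA translation, 6 varied, near the 71.6% of all genes tested, and 0 were lowest in library 19, against 14% of all genes. With only 8 genes, a count of 0 does not set them apart from that 14%. Larp1, which binds the TOP tract, was at 209, 198, 190, 234, 219 and 291 CPM, highest in library 23. Rps6kb1, an S6 kinase, ranged from 80.2 to 102 CPM. Rptor, a subunit of the mTOR complex, lay between 111 and 129 CPM and did not pass the chi-square test over all genes (adjusted p = 0.0813).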

How the data were processed

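The authors deposited 1 table of 48709 genes for 6 libraries. Per the file headers it gives whole read counts on exons, not normalized, with those that span a junction, the fraction of each gene's reads on introns, the ratio of exon reads that match 1 place to all exon reads, and RPKM values, which the authors scaled by exon length and depth. The deposited intron fraction and exon count gave back the intron reads, for tested genes to within 0.01 of a whole number. Another 9 columns per library were not used. The submitters' processing notes name the builds GRCm38 and mm10. The aligner, the counter, its strand setting and how it handled reads with several matches: not given in the sources used here.

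Library names matched no label (0 of 6 libraries), so the planned test of Gpx4 cKO against WT was not run, and the values are given by library. Nothing in the labels says that samples are separate animals. CPM used TMM sizes from edgeR 4.0.16 in R 4.3.3 on 9510 genes kept by filterByExpr. The chi-square tests had 5 degrees of freedom, a minimum of 200 reads (exon counts) or of 5 expected reads in each cell (intron share), Benjamini-Hochberg adjustment over all genes tested and a threshold of 0.05. A count of 0 was taken to allow 3 counts. Log2 differences used a prior of 2 reads. Reads are not independent molecules where PCR copies were counted, so intervals and tests cover counting error only.

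On simulated counts for the 9042 tested genes, the exon test called 64% of genes changed 1.5-fold, 97% of those changed 2-fold and 13 unchanged genes. On simulated counts for 7231 genes, the intron test called 94.5% of shares changed 2-fold and 13 unchanged genes. Both simulations held counting error only, with a single library altered for each changed gene. They covered genes of all depths, so these rates are not those of the deeply counted ribosomal protein genes. Alternatives used DESeq2 1.42.0 size factors, total reads, other minimums, each library left out, and, added after seeing the data, ribosomal protein reads as the library size and only reads that match 1 place. Scripts used numpy 2.4.6, pandas 2.3.3, scipy 1.17.1 and matplotlib 3.10.9. The genes and lists were chosen with earlier results of these data known. Named genes were the 4 most and 4 least abundant per length, the 6 widest and 4 narrowest ratios, the 4 highest and 4 lowest intron shares, all genes of the P stalk, 5S particle and paralog lists and the 3 most abundant of each other list. Promoters are from RefSeq. Some genes that this rule takes are not reported here.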

Additional observations from a re-analysis of the deposited data

Results flagged for a closer look

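Each of the 83 sets of 6 library values (80 genes, the sum, the subunit ratio and the median intron share) was examined for 1 library far from the other 5, by Dixon's criterion with a critical value of 0.625. For independent sets the criterion marks about 1 in 20 by chance. These sets share the same 6 libraries, and 72 of the 80 genes were lowest in library 19. They are not independent, so that rate does not apply to their number. The criterion marked 14 sets. In 11 of them library 19 was low. Rpl13 was at 1718 CPM there and at least 2245 in the others, and Rpl13a at 1174. Among other large subunit genes, Rpl17 was at 745 CPM in library 19, Rpl19 at 634, Rpl34 at 486, Rpl37a at 320.2, Rpl38 at 585 and Rpl7 at 798. Among small subunit genes, Rps16 was at 904 CPM in library 19, Rps21 at 699 and Rps4x at 752.

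In 3 sets a library was high. Rpl35a reached 1907 CPM in library 21 and at most 1013 in the others, Rpl6 reached 1544 CPM in library 23 and at most 1130 in the others, and Rplp0 reached 1520.4 CPM in library 18 and at most 984 in the others. The libraries belong to no known group, and the sources of these values were not tested.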

How the results depend on the processing

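No paired analysis was possible because no library could be matched to a label and so none carries a replicate number. The ratio of the highest to the lowest summed level was 1.39, and became 1.37 with total exon reads, 1.38 without a filter before TMM and 1.39 with only reads that match 1 place. It ranged from 1.13 (without library 19) to 1.39 with each library left out. Genes varying beyond counting error numbered 79 or 80 and genes within 2-fold 75 to 78 with a library left out. Of all genes tested, 61.2% to 68.3% then varied. The genes lowest in library 19 numbered 72 to 74 with another library left out, 70 without a filter before TMM and 64 with total exon reads. Of all genes tested, 16.3% to 18.6%, 10.6% and 9.07% were lowest there in these settings. Genes whose intron share varied numbered 34 of 58, and 13 of 15 with a minimum of 20 expected reads, where fewer genes could be tested. Their number ranged from 27 to 37 with a library left out. The shares of all genes whose intron share varied were not computed for these alternatives. The range of the subunit ratio was 1.10 without the most abundant gene of each subunit, and from 1.07 (without library 22) to 1.11 with a library left out. The range of the median intron share, 1.5-fold, was 1.32 from summed reads, 1.22 without genes that hold a snoRNA, and 1.28 (without library 20) to 1.5 with a library left out.

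Single calls were lost for Rpl7l1 without library 18 (adjusted p = 0.106 in the chi-square test over all genes, ratio 1.53 against 1.54 with all libraries), Rps16 without library 19 (0.0773, ratio 1.07 against 1.31) and Rps27l without library 20 (0.153, ratio 1.47) or 22 (0.116, ratio 1.42), against 1.74. The cause was not tested. The depth of library 21 limits its values for the copies with few reads.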
